A study of Mus musculus with 2 samples.

Results

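Cyclins of the D and E type and the kinases they switch on, Cdk4, Cdk6 and Cdk2, carry a cell from G1 into S phase. This set holds 8 genes, chosen by symbol: Ccnd1, Ccnd2, Ccnd3, Ccne1, Ccne2, Cdk2, Cdk4 and Cdk6. They are 8 of 21900 protein-coding genes in the reference, and 5 of them are among the 5594 genes for which the deposited list of E2F1 peaks names a region. The list comes from chromatin immunoprecipitation with sequencing (ChIP-seq), in which an antibody enriches the DNA bound by its target. There is 1 record made with an anti-E2F1 antibody and 1 record of input chromatin. Both come from primary hepatocytes, the parenchymal cells of the liver, from C57Bl6J mice. All cells received the adenovirus Ad-E2F1 and were harvested 36 h later, so the input carries the same vector. The series text mentions 2 replicates of 2 combined ChIPs each, but the list is not split by replicate and no value below has a replicate error. Cells without the vector were not analysed here, the labels do not give the level of E2F1, and a peak list holds no expression values by which hepatocyte markers could be checked.

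In the textbook order, mitogens raise the D cyclins, whose complexes with Cdk4 or Cdk6 phosphorylate the retinoblastoma protein and so free E2F factors from it. Freed E2F then switches on S phase genes, of which the gene of cyclin E1 is a classic example. Cyclin E activates Cdk2, which phosphorylates the retinoblastoma protein further and helps to start DNA replication. Hepatocytes of the adult liver rarely divide, and cyclin D1 is known for its rise when they re-enter the cycle after liver injury.

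The comparison of ChIP with input asked where E2F1 bound, and here at which of the 8 genes and how near the start site. The gene of cyclin E1, Ccne1, and that of its kinase partner Cdk2 were the 2 members with a peak at the promoter, meaning a summit within 1000 bp of the transcription start site (TSS). Their folds over input were 17.26 and 12.61. Ccnd1, Ccnd3 and Cdk6 had listed peaks away from the promoter, with folds from 2.81 to 7.64. Ccnd2, Ccne2 and Cdk4 had no listed peak. Among all protein-coding genes, 13.1% had a promoter peak, against 2 of the 8 members, and 24.7% had any listed peak, against 5 of the 8. With so few members, and 1 ChIP record against 1 input record, no test was run on these counts. All values of single peaks are the authors' own: fold, tags, pileup height and false discovery rate.

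**Figure D1:**
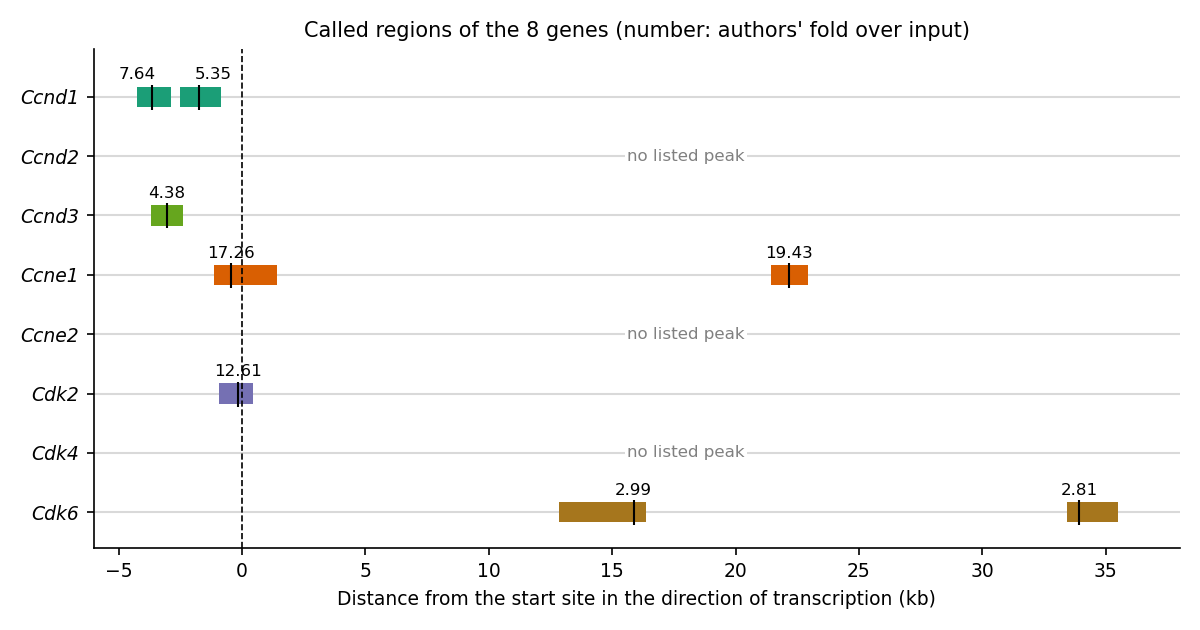
Regions called at each of the 8 genes, drawn to scale against the authors' TSS (dashed line), with the x axis in kb and positive values in the direction of transcription; black ticks are summits and numbers are folds over input. The promoter region of Ccne1 and the region of Cdk2 cross the start site, and the other Ccne1 region lies past the 3′ end of the gene. Those of Ccnd1 and Ccnd3 lie upstream of the start site, and those of Cdk6 lie inside the gene.

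The list as a whole holds 5667 peaks with a median fold of 4.93 and a median pileup height of 45, and the 2612 promoter peaks have medians of 6.48 and 60. How many reads each library holds is not known here, so depth cannot be stated. Exact Poisson 95% intervals on tags and pileup heights below cover counting error only. Those on heights take the height as a plain count, though its scaling is not given. Regions are on mm9, the build of the file, and are counted from 1.

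Ccne1 (ENSMUSG00000002068) codes for cyclin E1, the regulatory subunit that turns on Cdk2 at the end of G1. Its promoter peak had a fold of 17.26 and ranked 184 of 5667 peaks by fold and 153 of the 2612 promoter peaks. The window of 301 bp around the summit lay at chr7:38892842-38893142, with its near edge 288 bp upstream of the TSS. The called region of 2539 bp ran from 38891138 to 38893676 and held the start site. It contained 276 tags (interval 244 to 311) with a pileup height of 116 (95.9 to 139), and the authors give it a false discovery rate of 0%. This peak thus stood in the top few percent of the list by fold, with a fold percentile of 96.8.

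A second Ccne1 peak lay past the 3′ end of the gene and had a fold of 19.43, rank 115 of 5667, the highest fold of any peak named for a member. The window was at chr7:38870251-38870551, and the authors list it as 12451 bp downstream of the gene. Measured from the TSS that the promoter peak gives, its near edge was 22002 bp away. The difference of 9551 bp is close to the 9507 bp length of Ccne1 in the reference, so the listed distance is taken from the gene end. The peak had 174 tags (149 to 202) in 1474 bp and a pileup height of 109 (89.5 to 131). That interval overlaps the one at the promoter, and the difference in height between the 2 peaks was not tested.

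The summits of these 2 Ccne1 peaks were 22591 bp apart. Their serial numbers from the peak caller, 15809 and 15810, follow each other, so no serial number falls between them. In the gene order of assembly GRCm38.p6 the next gene past the 3′ end of Ccne1 is the long non-coding RNA gene Gm30771. Whether the downstream peak lies in that gene was not determined, since the peaks are on another build. Among the 743 peaks listed as downstream of a gene, the one at Ccne1 ranked 12 by fold and 59 by pileup height.

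Cdk2 (ENSMUSG00000025358) codes for the kinase that cyclin E1 activates. Its only listed peak had a fold of 12.61, rank 413 of all peaks and 332 of the promoter peaks. The window was at chr10:128142138-128142438, with its near edge 30 bp upstream of the TSS. The called region of 1394 bp, from 128141650 to 128143043, held the start site and contained 203 tags (176 to 233). The pileup height of 140 (118 to 165) was the highest among the members, though its interval overlaps those of both Ccne1 peaks. By tags per kb of region Cdk2 was also first, with 146 against 118 and 109 at the downstream and promoter peaks of Ccne1. The authors also name this peak for Pmel, a melanosome protein gene, whose TSS lies 875 bp from the window edge. That places the summit just outside the promoter range of Pmel used here, so the peak counts for Cdk2 alone. The authors class it as a promoter peak of both genes.

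No single order of the 3 strongest member peaks held for all measures. By fold it was the downstream Ccne1 peak, the Ccne1 promoter and Cdk2. Their pileup heights ranked 348 in the list for Cdk2, 524 for the Ccne1 promoter and 591 for the downstream peak. The intervals of these heights overlap, and their differences were not tested. By the caller's score, which is 10 times the negative log10 of its p-value, the Ccne1 promoter came first with 764.28, ahead of 644.11 at the downstream peak and 433.54 at Cdk2. All 3 stood above the other 5 member peaks by fold, pileup height, score and tags per kb, as the plot of 4 measures shows for fold, height and tags per kb. In tags per region they did not. The Cdk6 regions held 218 and 176 tags, against 203 at Cdk2 and 174 at the downstream Ccne1 peak.

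**Figure D2:**
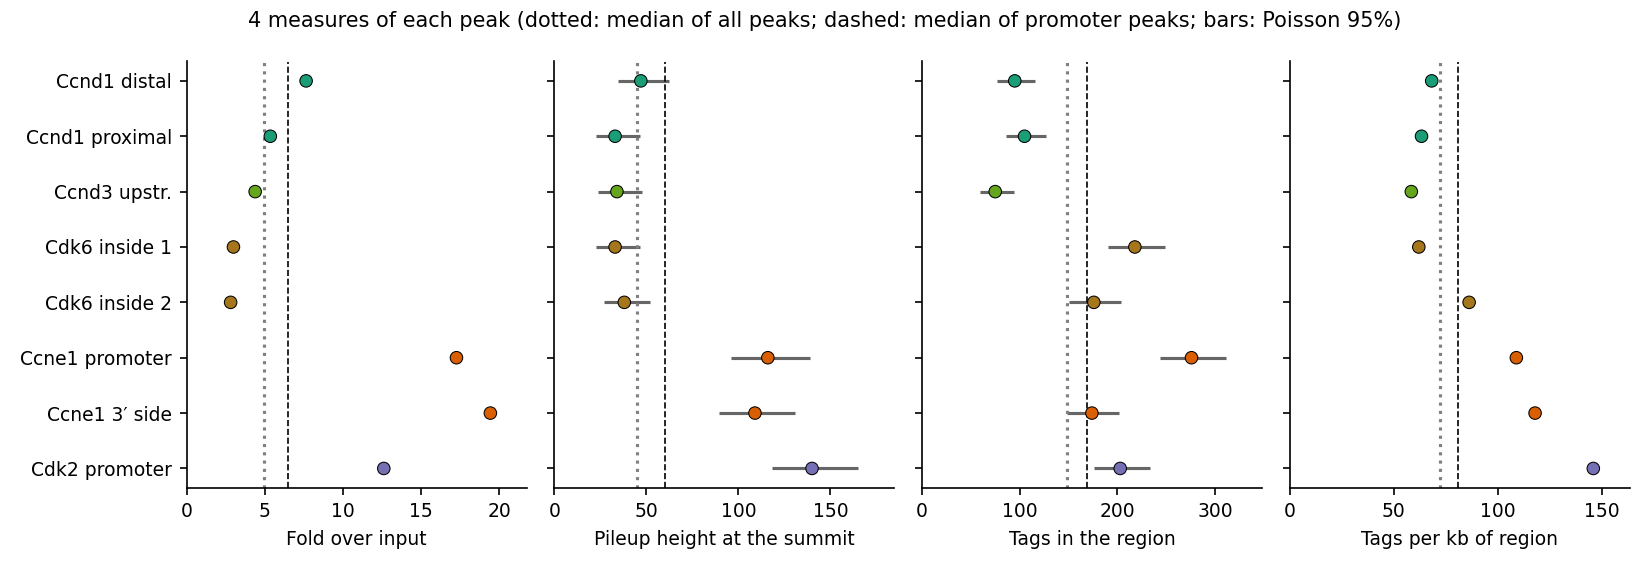
Fold over input, pileup height, tags in the called region and tags per kb for each of the 8 member peaks. Dots are single peaks, and bars are exact Poisson 95% intervals on tags and on heights taken as plain counts. Dotted lines are medians of all 5667 peaks and dashed lines medians of the 2612 promoter peaks. The 2 Ccne1 peaks and the Cdk2 peak lie to the right of both medians in each panel, and the other 5 peaks lie below both medians in at least 1 panel.

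The reference promoter sequences of Ccne1 and Cdk2 are shown because both genes have a peak there, and that of Cdk4 because it is the kinase of the same family with no listed peak. They are the 250 bases before the RefSeq gene start in assembly GRCm38.p6, printed 5′ to 3′ on the strand of the gene. Capitals mark the E2F octamer TTTCCCGC and the shorter core TCCCGC that is part of it, on either strand, so that on the opposite strand they read as GCGGGAAA and GCGGGA. The windows are chr7:38107491-38107740 (minus strand) for Ccne1, chr10:128705052-128705301 (minus strand) for Cdk2 and chr10:127063285-127063534 (plus strand) for Cdk4.
Ccne1: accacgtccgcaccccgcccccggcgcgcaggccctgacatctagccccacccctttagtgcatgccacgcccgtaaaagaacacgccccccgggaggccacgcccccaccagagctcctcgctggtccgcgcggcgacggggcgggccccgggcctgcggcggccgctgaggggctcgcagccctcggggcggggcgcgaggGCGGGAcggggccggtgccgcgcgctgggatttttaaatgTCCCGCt
Cdk2: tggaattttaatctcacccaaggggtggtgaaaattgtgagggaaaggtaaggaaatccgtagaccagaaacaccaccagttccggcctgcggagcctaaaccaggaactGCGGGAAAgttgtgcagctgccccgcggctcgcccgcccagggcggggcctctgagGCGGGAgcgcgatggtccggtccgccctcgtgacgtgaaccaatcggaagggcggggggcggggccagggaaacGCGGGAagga
Cdk4: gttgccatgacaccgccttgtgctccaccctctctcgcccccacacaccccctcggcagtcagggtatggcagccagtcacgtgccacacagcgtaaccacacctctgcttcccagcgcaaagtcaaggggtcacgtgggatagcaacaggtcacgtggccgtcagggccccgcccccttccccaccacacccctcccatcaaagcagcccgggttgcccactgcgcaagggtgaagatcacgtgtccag

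The Cdk2 sequence held 1 of the 4 E2F octamers searched on both strands (TTTCCCGC, TTTCGCGC, TTTGCCGC and TTTGGCGC). It is TTTCCCGC on the opposite strand, from -140 to -133 with -1 as the last base before the gene start. The authors' peak window spans -331 to -31 relative to their own TSS, and whether that start site and the RefSeq one are the same base was not checked. Windows of 300 bases, the 250 upstream and 50 after the start, were in the table for 5 members (Ccnd3, with 2 windows, and Ccne1, Cdk2, Cdk4 and Cdk6). Cdk2 was the only one of the 5 with an octamer. At least 1 octamer was present in 2.26% of all 32851 promoter windows, in 8.18% of the 2910 windows of genes with a promoter peak and in 1.69% of the others.

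Ccne1, with the stronger fold at its promoter, had no octamer in its window. It had the core TCCCGC 2 times, from -47 to -42 on the opposite strand and from -7 to -2. The core was chosen after the sequences were seen. Cdk2 held it 3 times, including the copy inside its octamer, and Cdk6 2 times, one of them across the gene start. Cdk4 and both windows of Ccnd3 had none. Of all windows 20% held the core, and of those of promoter peak genes 44.7%. The GC box GGCGGG, which overlaps the core wherever it is followed by A, occurred 6 times at Cdk2, 4 times at Ccne1, 3 times at Cdk4, 2 and 3 times in the Ccnd3 windows and 0 times at Cdk6. It was in 35.3% of all windows and 70.4% of those of promoter peak genes. Ccne1 had 76% G and C in its 250 bases, Cdk2 63.2% and Cdk4 64.4%, beside a median of 60% for windows of promoter peak genes. The motif CCAAT occurred 1 time at Cdk2, 1 time in 1 of the 2 Ccnd3 windows and 0 times at Ccne1, Cdk4 and Cdk6, beside 37.4% of all windows and 46.3% of those of promoter peak genes. TATAAA occurred 1 time at Cdk6 and at none of the other 4 genes, beside 13.6% of all windows. TTTGAA occurred at none of the 5, beside 17.9%. These letters describe the reference sequence and do not show which base was bound.

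Ccnd1 (ENSMUSG00000070348), the gene of cyclin D1, had 2 peaks upstream of its start site and none over it. The nearer window lay at chr7:152127375-152127675, its edge 1600 bp upstream, with a fold of 5.35 and 105 tags (85.9 to 127). The farther one lay at chr7:152129264-152129564, its edge 3489 bp upstream, with a fold of 7.64 and 95 tags (76.9 to 116). The called regions were separated by 370 bp and carried the serial numbers 16555 and 16556, which follow each other. Their pileup heights of 33 (22.7 to 46.3) and 47 (34.5 to 62.5) follow the order by fold, but the intervals overlap and the difference was not tested. The nearer region ended at -843 bp relative to the start site. By fold the farther peak ranked 1277 and the nearer 2455 of 5667, and false discovery rates were 0.66% and 0.62%.

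The authors class the nearer Ccnd1 peak as a promoter peak, since that class reaches up to 1980 bp upstream in the list. By the range of 1000 bp used here it is not one. The member just inside this range is Ccne1, with its summit 438 bp from the TSS, and the member just outside is Ccnd1, with its summit at 1750 bp. Under the authors' class 3 of 8 members had a promoter peak, beside 13.2% of protein-coding genes.

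Ccnd3 (ENSMUSG00000034165), the gene of cyclin D3, was named for 1 peak, at chr17:47638813-47639113. Its edge lay 2886 bp upstream of the Ccnd3 start, and the fold was 4.38 with 75 tags (59 to 94), the lowest tag count among the members. The same window lay 128 bp inside Taf8, a subunit gene of the general transcription factor TFIID, and the authors mark Taf8 as the closer gene. The peak counts as a Taf8 promoter peak. Its fold was below the median of all peaks and its false discovery rate was 5.82%. By serial number, 1 more listed peak falls between it and the peak at Med20 (fold 6.67), the next gene with a peak past Ccnd3 in the reference order. The peak in between is not named for Ccnd3, and where it lies relative to the gene was not determined. Ccnd2, the gene of cyclin D2, had no listed peak. None of the 3 D cyclin genes thus had a peak named for it within 1000 bp of the start site that the authors use. That count stands beside 13.1% of all protein-coding genes, and so near that share. The reference has a further promoter window for Ccnd3 at another start, and distances of peaks to both starts were not compared.

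Cdk6 (ENSMUSG00000040274), a kinase partner of the D cyclins, had 2 peaks deep inside the gene. They lay at chr5:3359610-3359910 and chr5:3377658-3377958, with edges 15717 and 33765 bp past the start. The folds of 2.99 and 2.81 ranked 5381 and 5536 of 5667, near the bottom of the list, and were below the median of 3.83 over 1762 peaks lying inside genes more than 10000 bp from the start. The tag counts of 218 (190 to 249) and 176 (151 to 204) were above the median of 149. The first region covered 3511 bp and held 62.1 tags per kb, below the median of 72.1 over all peaks. The second held 86.3 tags per kb, above that median. False discovery rates were 7.82% and 3.56%. Cdk6 is a long gene of 190005 bp in the reference. Of the 1872 protein-coding genes of 100000 to 300000 bp, 26.2% had a listed peak inside them, against 2.60% of those under 20000 bp.

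**Figure D3:**
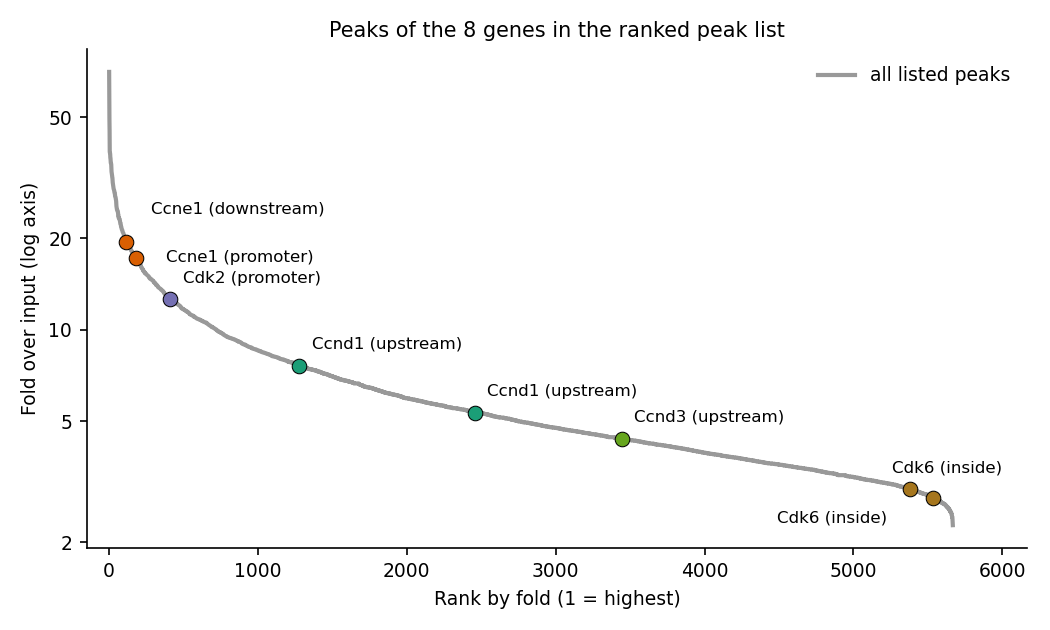
Fold over input (log axis) of all 5667 listed peaks against their rank (grey line), with the 8 member peaks as coloured dots. The 3 peaks at Ccne1 and Cdk2 are among the first 413, those of Ccnd1 and Ccnd3 fall between ranks 1277 and 3445, and those of Cdk6 fall at 5381 and 5536.

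Cdk4, Ccne2 and Ccnd2 had no row in the list. Cdk4 is a kinase partner of the D cyclins, and Ccne2 codes for cyclin E2, the paralog of cyclin E1. In the gene order of the reference, the listed peaks next to Cdk4 were at the promoters of Tsfm (fold 9.08) and Pip4k2c (fold 6.34). Ccne2 lay between a peak upstream of Ndufaf6 (fold 4.50) and one inside Dpy19l4 (fold 3.01). Ccnd2 lay next to a promoter peak at Tigar, with a fold of 11.2. Serial numbers rise along each chromosome, and 13241 of those up to 18908 are not in the list. Between the flanking peaks 1 such number was missing at Cdk4, 1 at Ccne2, and 1 at Ccnd2 before the next peak with a gene in the reference, inside Parp11 (fold 8.01). Between Tigar and Parp11 the list also holds a peak named for Gm10414, 9589 bp downstream of that gene with a fold of 8.10. Gm10414 was not matched to the reference, so on which side of Ccnd2 this peak lies was not determined. A region called there and then left out can therefore not be told apart from no call, and the absence of a row does not show that E2F1 was not bound.

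By pairs of cyclin and kinase, 2 of the 3 genes on the side of cyclin E and Cdk2 had a promoter peak, Ccne2 being the one without. On the side of the D cyclins, Cdk4 and Cdk6 the count was 0 of 5, beside 13.1% of all protein-coding genes, and so near that share. These counts hold for the range of 1000 bp. The authors' class adds Ccnd1, and summits within 5000 bp add Ccnd1 and Ccnd3. Counting listed peaks at any place, Ccnd1, Ccnd3 and Cdk6 had one on the D cyclin side, and Ccne1 and Cdk2 on the other. Of all protein-coding genes, 24.7% had any listed peak. The median fold of the 2 promoter peaks was 14.935, beside 6.525 for all 2866 protein-coding genes with one. The difference between the sides was not tested.

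Other genes of the pathway were taken from 7 lists with 72 genes in all. Their counts below stand beside the 13.1% of protein-coding genes with a promoter peak. CDK inhibitors block the kinases above, and 2 of 7 had a promoter peak. Cdkn2d, the gene of p19Ink4d, which inhibits Cdk4 and Cdk6, had a fold of 35.39, rank 13 of the whole list, and Cdkn2a had 8.98. Cdkn1a and Cdkn1b, the genes of p21 and p27, had peaks elsewhere: those of Cdkn1a lay inside the gene with folds of 13.63 and 11.17 and past its end with 4.22, and that of Cdkn1b past its end with 4.33. Cdkn1c, Cdkn2b and Cdkn2c had no listed peak.

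Of 3 pocket protein genes, which code for the substrates of these kinases, 2 had a promoter peak, Rbl1 with a fold of 11.72 and Rb1 with 4.54. Of 10 genes of E2F factors and their DP partners, 3 had one: E2f3 (27.33), E2f7 (7.72) and Tfdp2 (3.05). Among 8 genes that add or remove phosphate on the kinases, 3 did. Cdc25a, the phosphatase that activates Cdk2 at the start of S phase, had a fold of 31.66, Cdc25c 8.43 and the inhibitory kinase gene Pkmyt1 7.04. Of 10 genes for the turnover of cyclin D, cyclin E and p27, 2 had one. Skp2, the ubiquitin ligase subunit that marks p27 for breakdown, had a fold of 18.94 at a promoter shared with Lmbrd2, and the deubiquitinase gene Usp28 had 4.81. Fbxw7, whose product marks cyclin E for breakdown, had a single peak 113111 bp inside the gene with a fold of 3.64.

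Outside the G1 set, 3 of 20 other cyclin genes (15%) and 4 of 16 other cyclin-dependent kinase genes (25%) had a promoter peak. Among the cyclins these were Ccng2 (10.86), Ccna2 (7.36), the gene of the S phase cyclin A2, and Ccnc (5.70). Among the kinases Cdk1, which drives mitosis, had 45.17, rank 4 of the list, Cdk19 had 7.38, Cdk5 had 5.32 at a promoter shared with Slc4a2, and Cdk20 had 4.68. The 15% of the cyclin genes lies near the 13.1% of all protein-coding genes. No list was tested against the others.

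**Figure D4:**
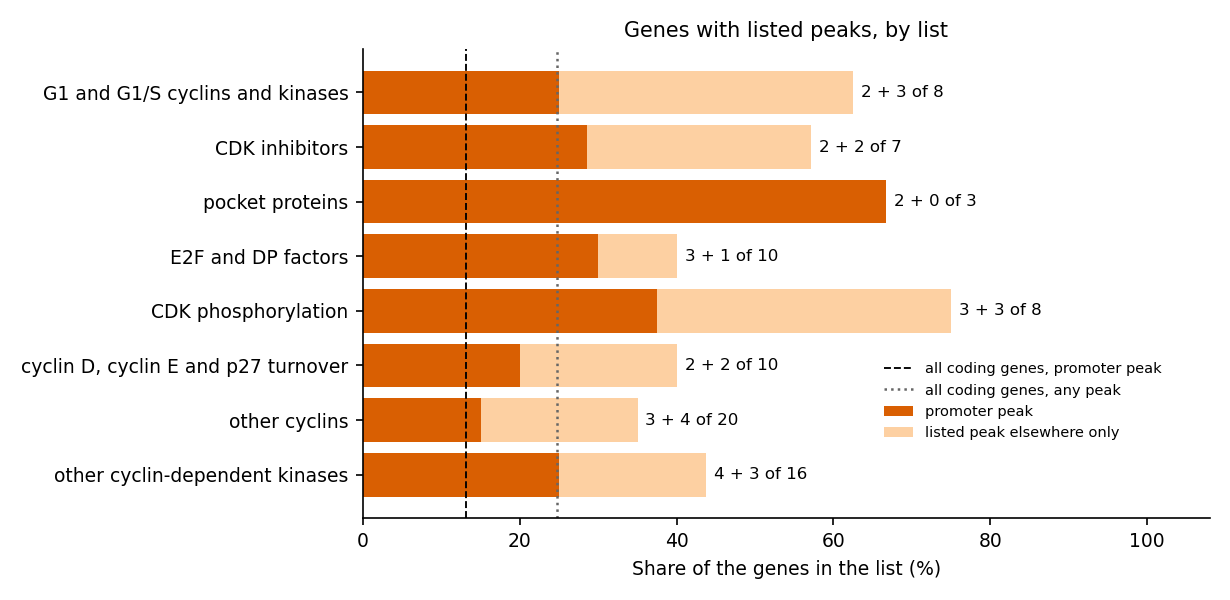
Share of the genes in each list (x axis, %) with a promoter peak (dark bar) or a listed peak elsewhere only (light bar), with the counts beside each bar as promoter + elsewhere of all; lines mark the shares among all protein-coding genes, 13.1% with a promoter peak and 24.7% with any peak. The G1 and G1/S set has 2 + 3 of 8 genes, and several lists hold 10 genes or fewer, so 1 gene moves their bars by 10 points or more.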

How the data were processed

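ChIP and input DNA came from hepatocytes fixed in 1% formaldehyde. Per the submitters' processing notes, reads were aligned with Bowtie2 (2.1.0) to mm9. The peak caller was MACS, per the file headers, with settings not given in the sources. Whether replicates were pooled first is not given either. The deposited tags are a whole-number count per called region, and the deposited pileup height is a signal at the summit whose scaling is not given. Fold is a deposited ratio of ChIP over the caller's background estimate. The score that the authors deposited is −10 log10 of the peak's p-value. False discovery rates are deposited as a percent.

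A promoter peak has a window edge within 850 bp of the TSS from which the authors give the distance, hence a summit within 1000 bp. Distances of entries downstream of genes were not used for this, and other start sites of a gene were not examined. Of 5587 symbols, 5493 (98.3%) matched the RefSeq table of GRCm38.p6, which served for names, gene order, lengths and promoter sequences. The members and lists were chosen with earlier results of these data known. From each list, up to 4 genes with the highest promoter fold were named, besides all members and genes sharing their peaks. Named outside that rule, after their values were seen, were members of the lists without a promoter peak and the genes of flanking peaks. So were Lmbrd2 and Slc4a2, which share a peak with a list gene. D430020J02Rik and Tomt were named for the highest folds among downstream peaks at no promoter. Gm30771 was named as the next gene past the 3′ end of Ccne1. Promoter calls, motif search and symbol matching were tested on simulated data. Python 3.11.15, pandas 2.3.3 and scipy 1.17.1 were used. Alternatives changed the promoter range, the peaks kept and the genes counted per peak.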

Additional observations from a re-analysis of the deposited data

How the results depend on the processing

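Ccne1 and Cdk2 were the 2 members with a promoter peak, at a median fold of 14.935, also with summits within 500 bp (11.5% of protein-coding genes), with only the closest gene counted (11.7%), and among the 2833 peaks of highest score (9.35%), the 1416 of highest fold (5.47%) and the 2257 with a false discovery rate of at most 1% (8.01%). The median over all promoter genes was 6.525, and 6.71, 6.49, 7.82, 10.26 and 8.45 under these settings in that order. The cuts by score, fold and false discovery rate only remove peaks and so could not add a member. Both peaks stand high enough in the list to pass each cut. With summits within 5000 bp Ccnd1 and Ccnd3 joined Ccne1 and Cdk2, giving 4 members and a median of 10.125, beside 15.3% of protein-coding genes. The authors' promoter class gave 3 members and a median of 12.61. The 5 members with any listed peak became 3 (Ccnd1, Ccne1 and Cdk2) among the 2833 peaks of highest score, the 1416 of highest fold and the 2257 of low false discovery rate, where 14.4%, 7.51% and 11.7% of protein-coding genes had one; with only the closest gene they were 4, beside 20.8%. Of the 5 members with a promoter window, 1 held an E2F octamer and 3 held an octamer or the core TCCCGC, an alternative chosen after the sequences were seen. No paired analysis was possible because the list is a single comparison of 1 ChIP record with 1 input record. Library depth is unknown, and no value has a replicate error.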

Other observations

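Ccne1 was the only gene named for 2 peaks with folds of at least 17.26, the lower of its own 2; 184 of the 5667 peaks reached that fold. This threshold was set after the values of Ccne1 were seen. Of 620 downstream peaks that lie at no promoter, 11 reached a fold of 17.26, the median was 4.325, and the highest folds were 32.6 at D430020J02Rik and 23.29 at Tomt.

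The gene of p21, Cdkn1a, had the strongest listed peaks outside promoters among the CDK inhibitors, 2455 and 4265 bp inside the gene, with 237 and 253 tags. Cdc25b had a listed peak 11769 bp past its end with a fold of 6.75, and Mnat1, a subunit of the kinase complex that activates cyclin-dependent kinases, had one 112606 bp inside the gene with a fold of 4.41.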
